A study of Homo sapiens and Mus musculus with 213 samples.

Results

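The semaphorins, ephrins, slits and netrins and the plexin, neuropilin, Eph, Robo, DCC and UNC5 receptors that read them were followed in HEK293T, a cell line that grew out of embryonic kidney tissue. The 69 genes were taken by a name rule, as the protein-coding genes of these families among the 58336 identifiers listed. The rule was set with earlier results of these data known. They comprise 20 semaphorins, 9 plexins, 2 neuropilins, 8 ephrins, 14 Eph receptors, 3 slits, 4 Robo receptors, 4 netrins and 5 receptors of netrins. Poly(A)-selected RNA was sequenced from 3 lines with 3 libraries each, out of 213 samples listed for the study. MYC WT is the unedited line, with its natural G-quadruplex (G4) motif, a G-rich sequence that can fold into a 4-stranded structure, at the MYC promoter. MYC MUT carries point mutations in the G-runs of that motif, on all copies, which stop it from folding. In SWP the motif was exchanged, on all copies, for a different motif that folds into a G4. Both edited lines were raised from single cells, and the labels do not say whether the 3 libraries of a line are separate clones or cultures of 1 clone, so p-values measure the spread between these libraries. Expression of the guidance genes was compared between the lines to describe what accompanies loss of the MYC G4 and its exchange. Because an edited line may be 1 clone, a difference between clones cannot be told apart from an effect of the edit.

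Axon guidance proteins were named for steering growing nerve fibres, and most are also used outside the nervous system, in vessels, kidney and epithelia. Semaphorins are read by plexins, with a neuropilin as the binding partner for most secreted class 3 members. Ephrins stay attached to the cell that makes them and are read by Eph receptor tyrosine kinases on the neighbour, class A ephrins through a lipid anchor and class B ephrins through the membrane. Slits repel through Robo receptors. Netrins attract through DCC and repel through UNC5 receptors.

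Reads assigned to genes numbered 65024354 in the smallest library and 98497026 in the largest. MYC, the gene at the edited site, was counted at 20020.3, 28396 and 21580.1 in MYC WT, 10693, 11176 and 12399.8 in MYC MUT and 14480.1, 24743 and 25245 in SWP, so every MYC MUT library lay below every library of the other lines. Its log2 fold change was -1.02 ± 0.19 (SE, adjusted p = 0.00182) in MYC MUT and -0.15 ± 0.19 (SE, adjusted p = 0.712) in SWP against MYC WT. MYC WT library 1 and SWP library 1 differed more from the other 2 libraries of their line (chi-square per degree of freedom of at least 41.9) than those did from each other, and calls that depend on either are given with and without it. The 8 markers of HEK293T and kidney epithelium were above the count minimum. Of 10 neuronal markers 5 rose in MYC MUT, with summed normalized counts of 790.3 to 1014 in MYC WT, 1527 to 1656 in MYC MUT and 909.7 to 1024 in SWP, while ELAVL4 and STMN2 had at most 3 reads in any library. Endothelial markers summed to 24.7 to 48.2, 88.6 to 96.2 and 32.3 to 51.3 in the same order, with PECAM1, CDH5 and TIE1 at no more than 3 reads. The part of either marker list in the results on guidance genes was not tested.

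Promoter windows of 5 Eph receptor and semaphorin genes are shown because EPHA6, EPHB6 and EPHB1 were among the genes that differed most between the lines and because EPHA8 and SEMA3E were the called members whose window held CACGTG, the core letters bound by MYC and its partner MAX. Each window holds the 250 bases before and 50 after a RefSeq start (GRCh38.p14), written 5′ to 3′ on the strand of the gene. Capitals mark CACGTG or a G4 motif, defined as 4 or more runs of at least 3 G separated by 1 to 7 bases of any kind, searched on both strands and so also as runs of C.
EPHA6, chr3:96814344-96814643, plus strand: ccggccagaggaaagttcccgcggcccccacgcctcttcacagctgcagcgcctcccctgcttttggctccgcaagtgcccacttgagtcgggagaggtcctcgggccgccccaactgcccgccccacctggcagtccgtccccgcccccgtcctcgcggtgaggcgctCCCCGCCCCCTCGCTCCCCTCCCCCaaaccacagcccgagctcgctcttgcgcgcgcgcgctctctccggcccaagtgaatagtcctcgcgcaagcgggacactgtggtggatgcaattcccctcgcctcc
EPHB6, chr7:142862506-142862805, plus strand: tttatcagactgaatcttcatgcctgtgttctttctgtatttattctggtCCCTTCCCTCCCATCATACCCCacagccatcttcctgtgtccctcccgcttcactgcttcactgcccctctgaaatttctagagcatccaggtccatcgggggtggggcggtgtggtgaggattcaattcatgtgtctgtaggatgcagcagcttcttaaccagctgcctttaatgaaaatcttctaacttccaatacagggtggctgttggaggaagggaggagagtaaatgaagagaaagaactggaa
EPHB1, chr3:134795010-134795309, plus strand: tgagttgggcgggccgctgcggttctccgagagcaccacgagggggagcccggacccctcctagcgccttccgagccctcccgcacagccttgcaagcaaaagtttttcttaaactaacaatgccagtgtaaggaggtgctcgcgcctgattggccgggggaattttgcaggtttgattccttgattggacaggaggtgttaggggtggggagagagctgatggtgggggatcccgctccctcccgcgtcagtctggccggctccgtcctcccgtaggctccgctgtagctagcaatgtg
EPHA8, chr1:22563239-22563538, plus strand: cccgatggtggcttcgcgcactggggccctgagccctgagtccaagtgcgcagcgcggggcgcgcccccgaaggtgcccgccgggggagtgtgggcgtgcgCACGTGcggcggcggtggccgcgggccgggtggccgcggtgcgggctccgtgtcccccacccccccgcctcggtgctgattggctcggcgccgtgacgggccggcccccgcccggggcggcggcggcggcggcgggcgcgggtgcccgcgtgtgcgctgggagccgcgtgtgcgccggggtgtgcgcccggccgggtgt
SEMA3E, chr7:83649090-83649389, minus strand: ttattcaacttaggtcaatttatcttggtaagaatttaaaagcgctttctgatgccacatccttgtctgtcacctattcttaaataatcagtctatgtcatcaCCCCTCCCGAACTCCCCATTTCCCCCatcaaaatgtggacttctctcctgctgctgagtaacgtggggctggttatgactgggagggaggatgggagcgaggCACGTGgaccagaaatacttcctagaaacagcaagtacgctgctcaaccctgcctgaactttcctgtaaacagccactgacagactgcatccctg

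EPHA6 and EPHB6 each held 1 G4 motif, written here as runs of C, and SEMA3E held 1 G4 motif and 1 CACGTG, while the EPHB1 window held neither. The EPHB6 window lies inside the gene as GENCODE draws it, downstream of the first annotated base. RefSeq windows were matched for 59 of the 69 members. EFNB3, EPHA10, NRP1, NTN1, NTN3, SEMA3A, SEMA6A, SEMA6B, UNC5B and UNC5D were not matched. CACGTG lay in 4 of the 59 windows (6.78%), beside 7.26% of the 35116 windows of the table, and in 7.27% of the 55 windows of tested members, beside 10.0% of the 11191 windows of tested protein-coding genes. A G4 motif lay in 27 of the 59 (45.8%), beside 25.0% of the table and 34.9% of those of tested protein-coding genes. Among matched members, a G4 motif lay in 5 of the 12 that rose in MYC MUT, in 2 of the 9 that fell and in 17 of the 34 that were not called. A match of letters is a description and not a site.

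Averaged over the 9 libraries, 64 of the 69 genes reached a normalized count of 10 and were tested among 20884 genes. A gene low in most lines could reach this mean through 1 line alone, as PLXNB3 did through MYC MUT. To be called by limma, a gene needed both a log2 fold change beyond 0.5 and a Benjamini-Hochberg adjusted p below 0.05. In MYC MUT against MYC WT 16 of the 64 rose and 12 fell, 28 in all (43.8%), beside 21.4% called of all genes tested, 11.3% higher and 10.1% lower. Of the calls over all genes 52.8% were rises, or 64.2% with values rescaled to equal totals. The libraries of MYC MUT and MYC WT did not overlap for 39 of the 64 (60.9%), beside a background of 52.3%, with 22 higher (background 25.9%) and 17 lower (background 26.4%). In SWP against MYC WT 1 rose and 3 fell, 4 of 64 (6.25%). Of all genes 5.13% were called (2.15% higher, 2.98% lower), so this was near the background with all 9 libraries. The rises numbered 4 without MYC WT replicate 2, beside 2.05% of all genes called higher in the same fit. They numbered 5 without SWP replicate 1, beside 2.69% of all genes. Libraries did not overlap for 22 (34.4%) beside 24.6%, with 8 higher and 14 lower beside 9.10% and 15.5%. The direct comparison of MYC MUT with SWP gave 16 higher and 9 lower, 25 of 64 (39.1%), beside 20.6% (12.3% higher, 8.31% lower), and 39 without overlap (60.9%) beside 52.3%, with 24 higher and 15 lower beside 29.2% and 23.0%. The median log2 fold change of the 64 was 0.08 in MYC MUT, -0.09 in SWP and 0.11 between the edited lines, against -0.0034, -0.055 and 0.044 over all genes tested. Both comparisons with MYC WT use the same 3 control libraries, whose file headers carry a suffix that those of the 6 edited libraries lack, so this difference cannot be told apart from edited against unedited. In bulk RNA, fewer cells that make a transcript and less transcript per cell cannot be told apart.

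**Figure D1:**
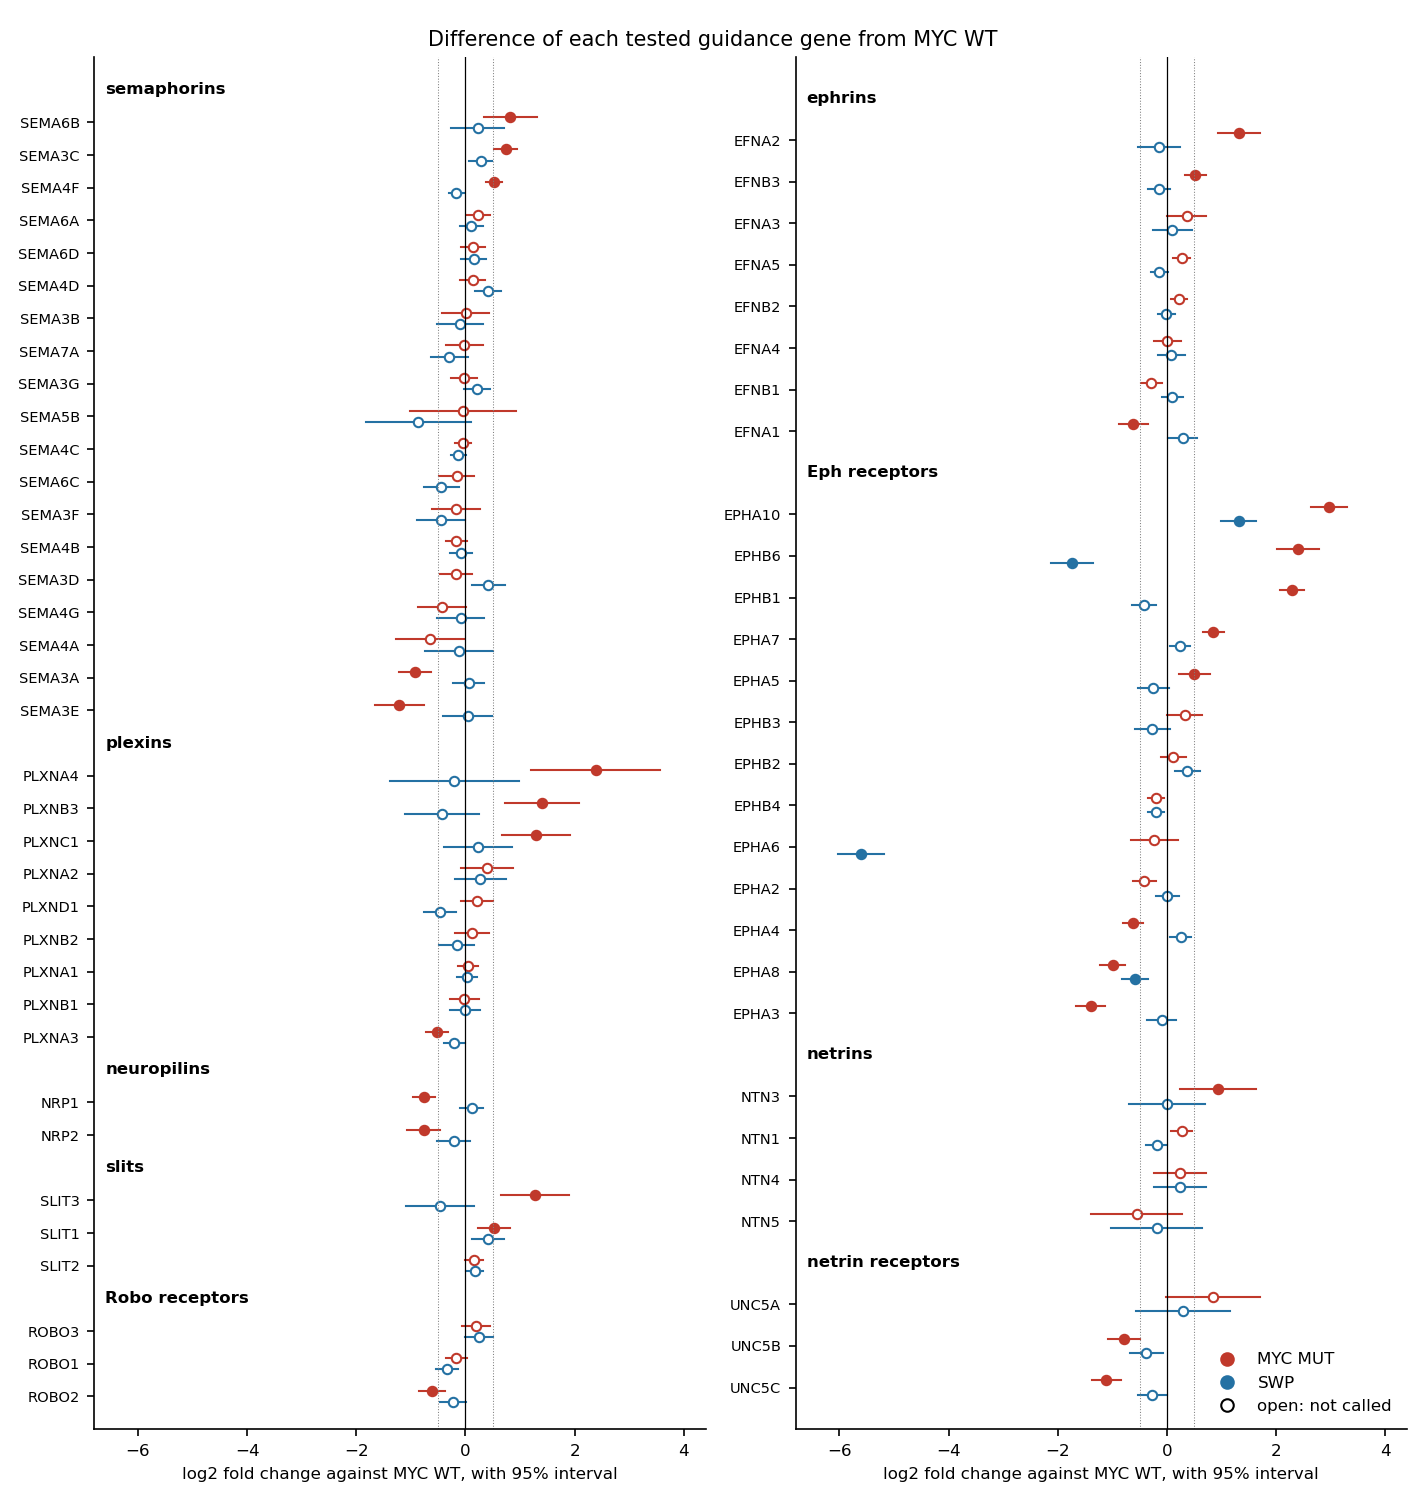
Log2 fold change against MYC WT with its 95% interval for each of the 64 tested guidance genes, grouped by family, for MYC MUT (red) and SWP (blue). Filled points were called, open points were not, and dotted lines mark 0.5 in either direction. The 28 filled red points are spread over every family, whereas the 4 filled blue points are all Eph receptors.

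Among the semaphorins, the largest ligand family, 3 of 19 tested rose in MYC MUT and 2 fell, 26.3% called, near the 21.4% of all genes. Both falls and 1 of the rises were of secreted class 3 members. SEMA3E, which acts on plexin D1 without a neuropilin, was counted at 632, 869.9 and 729.7 in MYC WT, 271, 327 and 360.4 in MYC MUT and 532, 948 and 866 in SWP. All MYC MUT libraries lay below the others, and the log2 fold change was -1.22 ± 0.20 (SE, adjusted p = 0.000835) against MYC WT and -1.26 ± 0.20 (SE, adjusted p = 0.000661) against SWP. SEMA3A, the founding growth cone collapsing factor, gave 931, 1156 and 1008 in MYC WT, 494, 577 and 555 in MYC MUT and 890.2, 1263 and 1089 in SWP. It too was lowest in each MYC MUT library, with log2 fold changes of -0.92 ± 0.13 (SE, adjusted p = 0.000292) and -0.98 ± 0.13 (SE, adjusted p = 0.000179) in the same order. SEMA3C, a secreted ligand of neuropilins and plexins, moved the other way and gave 1219.8, 1185 and 1112 in MYC WT, 2136, 1946 and 1796 in MYC MUT and 1609, 1339 and 1338 in SWP. Its 3 lines did not overlap, with SWP between the others, and the rise in MYC MUT was 0.74 ± 0.10 (SE, adjusted p = 0.000159). Against SWP its difference of 0.46 was under the fold threshold, and it passed at 0.52 without MYC MUT replicate 3 and at 0.55 without SWP replicate 1.

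SEMA3D, another secreted member, was counted at 1108, 1378 and 1114 in MYC WT, 956, 1115 and 1120.3 in MYC MUT and 1306, 1705 and 1832 in SWP. It was called only between the edited lines, at -0.59 ± 0.13 (SE, adjusted p = 0.00522), and this fell to -0.49 without SWP replicate 3. Against MYC WT its value in SWP was 0.42 ± 0.13 (SE, adjusted p = 0.0753), which passed at 0.52 without MYC WT replicate 2 and at 0.57 without SWP replicate 1. These 4 genes lie within 80742538 to 85187056 on chromosome 7 (hg38), all on the minus strand, in the order SEMA3C, SEMA3E, SEMA3A and SEMA3D. The other tested genes within 5 Mb of them had median log2 fold changes of -0.01 around SEMA3C and -0.08 around SEMA3E in MYC MUT, so members a few megabases apart moved in opposite directions while the middle of their neighbourhood stayed near 0.

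Of the membrane-bound semaphorins, SEMA4F had the highest level per kilobase of exon in the family, 417 ± 14.5 (SD, n = 3) in MYC WT. It was counted at 2568, 2694 and 2519 in MYC WT, 3680.0, 3647 and 3823 in MYC MUT and 2204, 2325 and 2404 in SWP, and no 2 lines overlapped. The rise in MYC MUT was 0.52 ± 0.06 (SE, adjusted p = 0.00012) against MYC WT and 0.69 ± 0.06 (SE, adjusted p = 1.39e-05) against SWP. The first sat at the threshold and became 0.498 without MYC WT replicate 3 and 0.499 when MYC MUT replicate 3 was left out. SEMA6B, a transmembrane ligand of class A plexins, gave 512, 644 and 554 in MYC WT, 916, 1061 and 1044 in MYC MUT and 426, 776 and 882 in SWP. Every MYC MUT library lay above all others, with 0.82 ± 0.22 (SE, adjusted p = 0.0122) against MYC WT. Against SWP the difference was 0.60 ± 0.22 (SE, adjusted p = 0.0507), and it was called with replicate number as a block (adjusted p = 0.00519), at 0.80 without SWP replicate 3, and without MYC WT replicate 1 (adjusted p = 0.0472) or with a pseudocount of 10 (adjusted p = 0.0499). SWP passed against MYC WT only without SWP replicate 1, at 0.54.

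None of the 19 semaphorins was called in SWP against MYC WT by limma, edgeR or DESeq2, and 6 had an unadjusted p under 0.05 with limma. The share of all genes under that p is not given here. For this and the later families, such counts therefore do not show whether a family differs from other genes. The other 14 semaphorins tested in MYC MUT ranged from -0.65 (SEMA4A) to 0.23 (SEMA6A). SEMA4A had a wide spread, 153, 319 and 255 in MYC WT against 125, 149 and 171 in MYC MUT, with an adjusted p of 0.0929. It passed at -0.95 without MYC WT replicate 1, without SWP replicate 1 (adjusted p = 0.0351), and with DESeq2 at an adjusted p of 0.0352. Between the edited lines its value of -0.53 was called with the replicate block (adjusted p = 0.0106) and at -0.81 without SWP replicate 1. SEMA5B, at 29.7, 60.6 and 50.1 in MYC WT, 27.7, 56.4 and 52.6 in MYC MUT and 12.6, 46.1 and 24.2 in SWP, was called with the block, lower in SWP than in MYC WT (adjusted p = 0.0172) and higher in MYC MUT than in SWP (adjusted p = 0.00888), and in the second comparison also at 1.27 without SWP replicate 2. SEMA4D, SEMA6C and SEMA4G were each called only when 1 library was left out: SEMA4D at 0.50 in SWP without MYC WT replicate 2, SEMA6C at -0.57 in SWP without MYC WT replicate 1, and SEMA4G at -0.58 between the edited lines without SWP replicate 1. SEMA3B, SEMA3F, SEMA3G, SEMA4B, SEMA4C, SEMA6A, SEMA6D and SEMA7A were called in no comparison. Of the exon bases of SEMA4G 28.0% lie opposite genes on the other strand, so its count is uncertain.

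Of the receptors of semaphorins, both neuropilins fell in MYC MUT, and of 9 plexins 3 rose, 1 fell and 5 were not called, beside 11.3% higher and 10.1% lower of all genes. NRP1, which binds SEMA3A and also vascular endothelial growth factor, was counted at 2417, 3083 and 2531 in MYC WT, 1538, 1561 and 1626 in MYC MUT and 3074, 2718 and 2858 in SWP. NRP2, the partner for SEMA3F, was counted at 2049, 2784 and 2149.6 in MYC WT, 1311, 1276 and 1500.2 in MYC MUT and 1651, 2097 and 2266 in SWP. For both, each MYC MUT library was below every library of the other lines. NRP1 fell by 0.76 ± 0.09 (SE, adjusted p = 0.000112) on the log2 scale against MYC WT, and its value against SWP was -0.87 ± 0.09 (SE, adjusted p = 3.78e-05). NRP2 gave -0.76 ± 0.14 (SE, adjusted p = 0.00136) and -0.55 ± 0.14 (SE, adjusted p = 0.00928), the latter becoming -0.45 without SWP replicate 3. Summed over both neuropilins, the level per kilobase was 399.8 ± 59.6 (SD, n = 3) in MYC WT, 235 ± 12.4 in MYC MUT and 395 ± 14.4 in SWP.

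**Figure D2:**
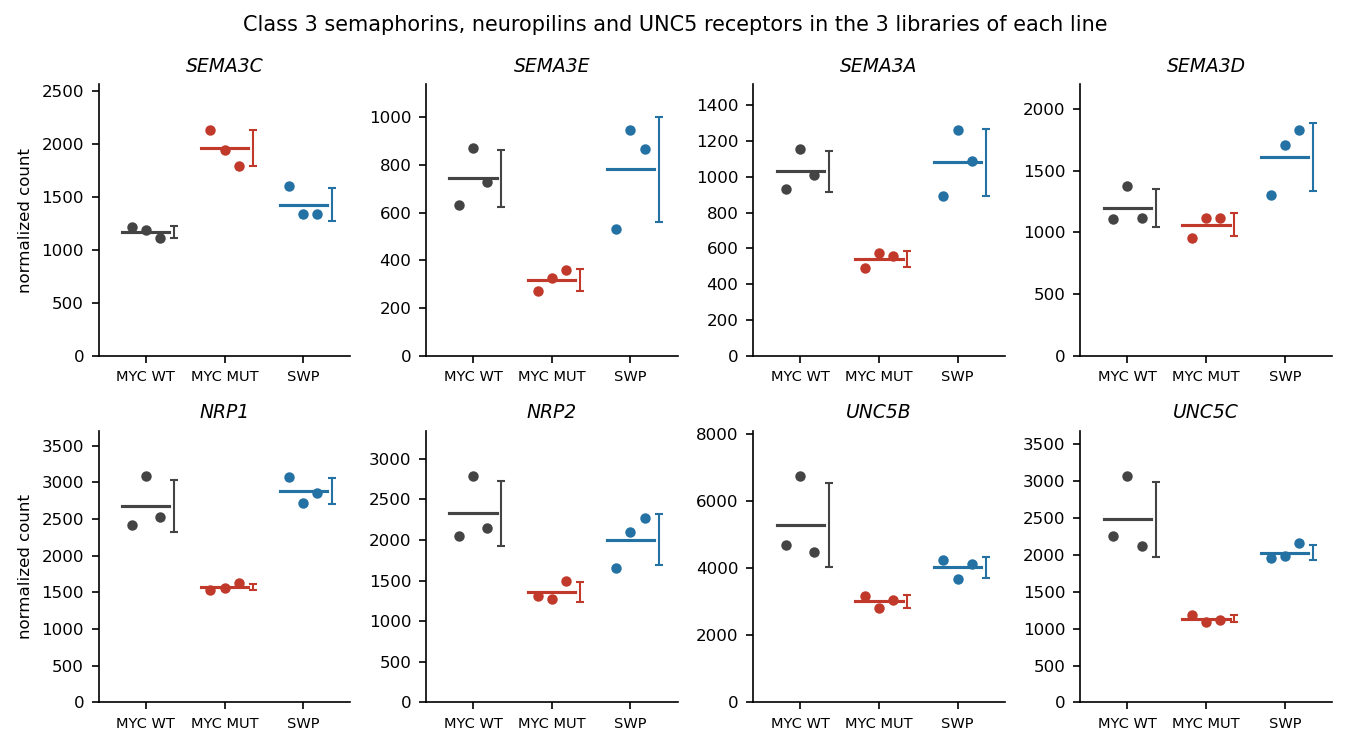
Normalized counts of 4 class 3 semaphorins (upper row), of the neuropilins and of UNC5B and UNC5C (lower row) in each library of the 3 lines; points are libraries, lines are means and bars are SD (n = 3). SEMA3E, SEMA3A, NRP1, NRP2, UNC5B and UNC5C are lowest in the 3 MYC MUT libraries, and SEMA3C is highest there.

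PLXNA4, which partners neuropilin 1 for SEMA3A, was counted at 7.18, 38.2 and 12.5 in MYC WT, 82.3, 78.7 and 92.5 in MYC MUT and 6.87, 25.3 and 12.7 in SWP. The 3 MYC MUT libraries were high and close together, and MYC WT replicate 2 and SWP replicate 2 stood above the other libraries of their lines. Its rise was 2.39 ± 0.54 (SE, adjusted p = 0.00482) against MYC WT and 2.59 ± 0.54 (SE, adjusted p = 0.00298) against SWP, the widest SE among the named members. Without MYC WT replicate 2 the first became 3.02. PLXNC1, the receptor of SEMA7A, gave 108, 159 and 168 in MYC WT, 301, 372 and 382 in MYC MUT and 99.7, 211 and 224 in SWP. All MYC MUT libraries were higher, with 1.29 ± 0.28 (SE, adjusted p = 0.00415) and 1.06 ± 0.28 (SE, adjusted p = 0.0123), and 7.89% of its exon bases lie opposite other genes. PLXNB3, a class B plexin with 11.3, 10.1 and 10.6 in MYC WT, 39.7, 34.0 and 19.5 in MYC MUT and 8.02, 5.94 and 9.23 in SWP, was called higher in MYC MUT against both, at 1.40 and 1.84, and 20.4% of its exon bases are shared with SRPK3 on the same strand. MYC WT and SWP together averaged under the count minimum of 10, so PLXNB3 was tested only through its MYC MUT values and its rises are no independent support.

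PLXNA3, a co-receptor for SEMA3F, was counted at 2221, 2173 and 1991 in MYC WT, 1583, 1529 and 1352 in MYC MUT and 2034, 1805 and 1723 in SWP. Each MYC MUT library was below the others, and the value of -0.52 ± 0.09 (SE, adjusted p = 0.00105) came out at -0.49 without MYC WT replicate 1, at -0.45 when MYC MUT replicate 3 was left out and at -0.44 and -0.48 with values rescaled to equal totals and upper quartiles. PLXND1, the SEMA3E receptor, gave 2792, 3288 and 2320.0 in MYC WT, 3401, 3026 and 3224 in MYC MUT and 1683, 2128 and 2249.9 in SWP. SWP was below both other lines, and the call was between the edited lines, at 0.68 ± 0.13 (SE, adjusted p = 0.00214), with -0.47 ± 0.13 (SE, adjusted p = 0.0489) in SWP against MYC WT, or -0.60 without MYC WT replicate 3. PLXNB2, the most abundant plexin per kilobase, gave 6866, 9514 and 7376 in MYC WT, 8307, 8539 and 8613 in MYC MUT and 5566, 7582 and 8141 in SWP. MYC WT overlapped with both edited lines, and MYC MUT lay above SWP in every library. The log2 fold changes against MYC WT were 0.11 (95% interval -0.20 to 0.43) in MYC MUT and -0.16 (-0.48 to 0.15) in SWP. PLXNA1, PLXNA2 and PLXNB1 ranged from -0.02 to 0.40 in MYC MUT and were called nowhere. No plexin or neuropilin was called in SWP against MYC WT by limma, edgeR or DESeq2, and 2 plexins and 0 neuropilins had an unadjusted p under 0.05.

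Ephrins, the cell-bound ligands, numbered 8, all tested, of which 2 rose in MYC MUT and 1 fell, beside 11.3% and 10.1% of all genes. EFNA2, a lipid-anchored ephrin, was counted at 122, 144 and 122 in MYC WT, 303, 319.8 and 348 in MYC MUT and 87.1, 130.0 and 138 in SWP. All MYC MUT libraries stood above the rest, which overlapped, with 1.32 ± 0.17 (SE, adjusted p = 0.000175) against MYC WT and 1.47 ± 0.17 (SE, adjusted p = 7.72e-05) against SWP. EFNA1, a ligand of EphA2, gave 897, 826 and 804 in MYC WT, 477, 625 and 555 in MYC MUT and 897, 1091 and 1109 in SWP. Here MYC MUT was lowest in all 3 libraries, with -0.61 ± 0.12 (SE, adjusted p = 0.002) and -0.90 ± 0.12 (SE, adjusted p = 0.000154). EFNB3, a transmembrane ephrin, gave 950.2, 1085 and 993 in MYC WT, 1405, 1463 and 1485 in MYC MUT and 812, 942 and 978 in SWP. MYC MUT was highest, with 0.52 ± 0.09 (SE, adjusted p = 0.001) against MYC WT, which became 0.48 without MYC WT replicate 1, and 0.68 ± 0.09 (SE, adjusted p = 0.000181) against SWP. The 175 other tested genes within 5 Mb of EFNB3 had medians of 0.24 and 0.42 in the same comparisons.

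EFNB2, the ligand of EphB4 at vessel borders, was the most abundant ephrin per kilobase, at 911 ± 43.8 (SD, n = 3) in MYC WT. It was counted at 4799, 4368 and 4519 in MYC WT, 5117, 5300.1 and 5549.7 in MYC MUT and 4709.8, 4189 and 4664 in SWP. MYC MUT libraries were above all others, and the difference of 0.22 ± 0.07 (SE, adjusted p = 0.0278) was under the fold threshold, with 36.4% of the exon bases of the gene opposite another. EFNA5 likewise stood apart in MYC MUT, with 2077, 2096 and 2110.0 against 1689, 1881 and 1647 in MYC WT and a log2 fold change of 0.27. EFNA3, EFNA4 and EFNB1 had values of 0.36, 0.01 and -0.28 and were called nowhere. EFNA3 and EFNA4 share 43.9% and 15.0% of their exon bases with a readthrough gene, so reads may have been split between them. No ephrin was called in SWP against MYC WT by limma, edgeR or DESeq2, and 1 had an unadjusted p under 0.05.

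Eph receptors held the largest differences of the whole set and were the only family with calls in SWP against MYC WT. Of 13 tested, 5 rose and 3 fell in MYC MUT, beside 11.3% and 10.1% of all genes, and 1 rose and 3 fell in SWP, beside 2.15% and 2.98%. EPHA6 (chr3:96814581-97761532), an EphA receptor of the nervous system, was counted at 399.8, 613 and 456 in MYC WT, 387, 431 and 414 in MYC MUT and 6.87, 11.1 and 9.23 in SWP. The 3 SWP libraries held 6, 15 and 8 reads, and MYC WT and MYC MUT overlapped. The mean in MYC WT was 53.9-fold that of SWP, with a log2 fold change of -5.60 ± 0.20 (SE, adjusted p = 3.21e-08), and MYC MUT differed from SWP by 5.37 ± 0.20 (SE, adjusted p = 1.35e-08). In MYC MUT against MYC WT it was -0.23 (95% interval -0.66 to 0.20). Some of its exon bases are shared with an unnamed gene on the same strand. The 49 other genes tested within 5 Mb had a median of -0.10 in SWP.

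EPHB6 (chr7:142855061-142871094), whose kinase domain is inactive, moved in opposite directions in the edited lines. It was counted at 146, 152 and 118 in MYC WT, 714, 715 and 762 in MYC MUT and 30.9, 49.8 and 42.7 in SWP. No 2 lines overlapped, with SWP lowest and MYC MUT highest. The log2 fold change was 2.40 ± 0.17 (SE, adjusted p = 3.45e-06) in MYC MUT and -1.75 ± 0.17 (SE, adjusted p = 0.0001) in SWP against MYC WT, and 4.14 ± 0.17 (SE, adjusted p = 4.14e-08) between the edited lines, where the means differed 17.7-fold. EPHA10 (chr1:37713880-37765133), the other receptor of the family without an active kinase, rose in both. It gave 49.2, 52.8 and 60.6 in MYC WT, 382, 468 and 449 in MYC MUT and 156, 134 and 119.9 in SWP. Here SWP lay between the lines without overlap, at 1.31 ± 0.15 (SE, adjusted p = 0.000256) against MYC WT, and MYC MUT was 2.97 ± 0.15 (SE, adjusted p = 2.91e-07) above MYC WT and 1.66 ± 0.15 (SE, adjusted p = 9.72e-06) above SWP. MYC MUT held 7.99 times the MYC WT mean. These 3 genes and EPHA8 kept their calls in SWP under all 20 alternatives.

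**Figure D3:**
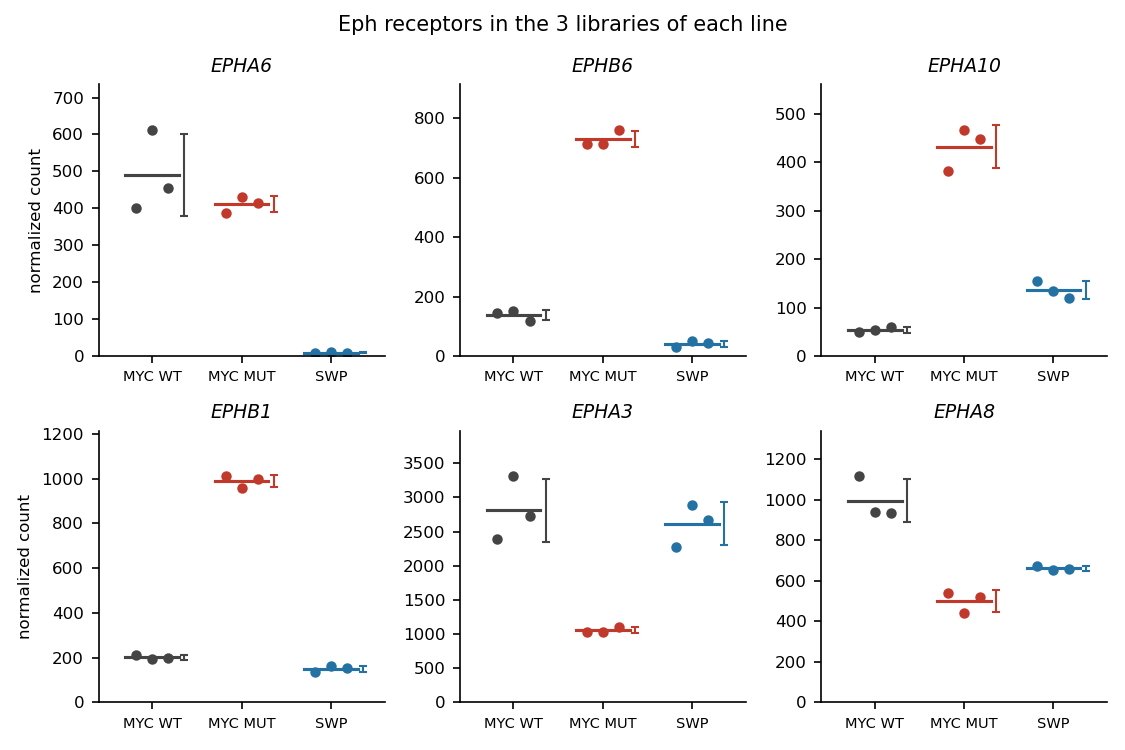
Normalized counts of 6 Eph receptor genes in each library of the 3 lines; points are libraries, lines are means and bars are SD (n = 3). EPHA6 is between 6.87 and 11.1 in SWP alone, EPHB6 is high in MYC MUT and low in SWP, EPHA10 is raised in both, and EPHB1 and EPHA3 are set apart in MYC MUT.

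EPHB1 (chr3:134795260-135260467), a receptor of class B ephrins, was counted at 210.1, 192 and 200.2 in MYC WT, 1010.4, 958 and 997 in MYC MUT and 136, 160.5 and 153 in SWP. The 3 MYC MUT libraries were close together and all others lay at or below 210.1. Its rise was 2.29 ± 0.10 (SE, adjusted p = 1.59e-07) against MYC WT and 2.71 ± 0.10 (SE, adjusted p = 2.03e-08) against SWP. SWP was below MYC WT in each library, with -0.42 ± 0.10 (SE, adjusted p = 0.0259), under the fold threshold. EPHA7, a class A receptor of the developing brain, gave 3801, 3445 and 3187 in MYC WT, 6421, 6179 and 6163 in MYC MUT and 4577, 3869 and 3889 in SWP. The lines did not overlap, with SWP between the others. It rose in MYC MUT by 0.85 ± 0.09 (SE, adjusted p = 2.82e-05) against MYC WT and 0.61 ± 0.09 (SE, adjusted p = 0.000247) against SWP, in a neighbourhood whose 30 other tested genes had medians of 0.37 and 0.42. EPHA5, which binds class A ephrins, gave 291, 370.4 and 268 in MYC WT, 458, 431 and 419.9 in MYC MUT and 238, 272 and 265 in SWP. MYC MUT was above the other lines, which overlapped. Its rise of 0.51 ± 0.13 (SE, adjusted p = 0.0101) sat at the threshold and was 0.47 without MYC WT replicate 1, 0.41 without MYC WT replicate 3, 0.47 when MYC MUT replicate 1 was left out and 0.49 with a pseudocount of 10, and it was 0.75 ± 0.13 (SE, adjusted p = 0.00095) against SWP.

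In all, 3 class A receptors fell in MYC MUT. EPHA3 (chr3:89107621-89482134), a receptor of ephrin-A5, was counted at 2399.7, 3311 and 2722 in MYC WT, 1025, 1037 and 1111 in MYC MUT and 2279, 2892 and 2678 in SWP. MYC MUT was lowest in each library, and MYC WT and SWP overlapped. The fall was -1.40 ± 0.12 (SE, adjusted p = 9.42e-06) against MYC WT and -1.30 ± 0.12 (SE, adjusted p = 1.15e-05) against SWP. EPHA4, which binds ephrins of both classes, gave 2711, 3299 and 2721 in MYC WT, 1780.4, 1922 and 1959 in MYC MUT and 3305, 3503 and 3538 in SWP. Its MYC MUT libraries were lowest and its SWP libraries highest, with -0.62 ± 0.09 (SE, adjusted p = 0.000248) and -0.87 ± 0.09 (SE, adjusted p = 1.98e-05). EPHA8 (chr1:22563489-22603595), another class A receptor, gave 1117, 938 and 936 in MYC WT, 539, 439 and 523 in MYC MUT and 674, 654 and 658 in SWP. The lines did not overlap, and it fell in both edited lines, with -0.99 ± 0.11 (SE, adjusted p = 4.05e-05) in MYC MUT and -0.59 ± 0.11 (SE, adjusted p = 0.00506) in SWP, while the difference between them was -0.41 ± 0.11 (SE, adjusted p = 0.0106).

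EPHB4, the ephrin-B2 receptor, was the most abundant Eph receptor, at 1118 ± 28.0 (SD, n = 3) normalized counts per kilobase in MYC WT. It was counted at 7126, 7400.4 and 7060.2 in MYC WT, 6085, 6083 and 6675 in MYC MUT and 6252, 5998 and 6649 in SWP. Both edited lines lay below MYC WT in every library, at -0.20 (95% interval -0.34 to -0.05) in MYC MUT and -0.19 (-0.34 to -0.05) in SWP, which is inside the fold threshold. EPHB3 was called between the edited lines alone, at 0.59 ± 0.15 (SE, adjusted p = 0.00817), or 0.49 without SWP replicate 1. EPHA2 and EPHB2 were called nowhere, with -0.42 and 0.12 in MYC MUT, although EPHA2 passed at -0.51 without MYC WT replicate 3. EPHA1 was under the count minimum, with 1, 2 and 0 reads in MYC WT, 5, 5 and 6 in MYC MUT and 1, 0 and 1 in SWP, a ratio of 4.94 (95% counting interval 1.41 to 26.5) between MYC MUT and MYC WT. This interval treats the summed reads as independent and leaves out the spread between libraries. Summed over the 14 receptors, the level per kilobase was 3107 ± 187 (SD, n = 3) in MYC WT, 2843 ± 79.6 in MYC MUT and 2964 ± 128 in SWP.

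Slits and their Robo receptors were dominated by SLIT2 and ROBO1. SLIT2, the main Robo ligand, made up 97.2% of the slit level per kilobase in MYC WT and was counted at 18918, 21744 and 18719 in MYC WT, 23515, 21128 and 21563 in MYC MUT and 22237, 22092 and 22160.1 in SWP. Its difference from MYC WT was 0.16 (95% interval -0.00066 to 0.32) in MYC MUT, where libraries overlapped, and 0.17 (0.01 to 0.33) in SWP, where they did not. ROBO1 was the most abundant guidance receptor of all per kilobase, at 1818 ± 227 (SD, n = 3) in MYC WT. It gave 19917, 22679 and 17669.8 in MYC WT, 18289, 17148 and 18107 in MYC MUT and 16914, 14696 and 16007 in SWP. SWP lay below MYC WT at -0.33 ± 0.09 (SE, adjusted p = 0.0384), under the fold threshold, and MYC MUT overlapped with MYC WT at -0.16 (-0.36 to 0.03).

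SLIT1 and SLIT3, lesser ligands of the same receptors, rose in MYC MUT. SLIT3 was counted at 51.3, 112 and 80.9 in MYC WT, 177, 183 and 207 in MYC MUT and 39.0, 72.8 and 61.1 in SWP. All MYC MUT libraries were above the others, with 1.27 ± 0.28 (SE, adjusted p = 0.00469) against MYC WT and 1.74 ± 0.28 (SE, adjusted p = 0.000674) against SWP. SLIT1 gave 412, 483 and 350.4 in MYC WT, 585, 618 and 574 in MYC MUT and 477, 603 and 578 in SWP. MYC MUT was above MYC WT throughout, with 0.52 ± 0.13 (SE, adjusted p = 0.00864), which was 0.41 without MYC WT replicate 3 and 0.49 when MYC MUT replicate 2 was left out. SWP had 0.42 ± 0.13 (SE, adjusted p = 0.0696) against MYC WT, and passed at 0.53 without MYC WT replicate 2 and at 0.52 without SWP replicate 1. ROBO2, a receptor of slits, was counted at 1256, 1539 and 1245 in MYC WT, 791, 923 and 919 in MYC MUT and 1035, 1158 and 1235 in SWP. MYC MUT was lowest, with -0.61 ± 0.11 (SE, adjusted p = 0.00122) against MYC WT and -0.38 ± 0.11 (SE, adjusted p = 0.0181) against SWP, the second inside the fold threshold. ROBO3 was called nowhere, and ROBO4, a receptor of vessel walls, had no read in any library. No slit or Robo receptor was called in SWP against MYC WT by limma, edgeR or DESeq2, with an unadjusted p under 0.05 for 2 slits and 1 Robo receptor, and between the edited lines no Robo receptor was called by any of the 3 tools, with 1 under 0.05.

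UNC5B and UNC5C fell in MYC MUT, and NTN1 was not called in any comparison. NTN1, the founding netrin, was counted at 4870.0, 4740.2 and 4287 in MYC WT, 5419.7, 5338 and 5985 in MYC MUT and 3832, 3856 and 4568 in SWP and gave 87.2% of the netrin level per kilobase in MYC WT. MYC MUT was highest, at 0.27 ± 0.09 (SE, adjusted p = 0.03) against MYC WT and 0.45 ± 0.09 (SE, adjusted p = 0.00187) against SWP, both inside the fold threshold, the second passing at 0.54 without SWP replicate 3. The 159 other tested genes within 5 Mb had medians of 0.24 and 0.41 in the same comparisons. UNC5B, a netrin receptor also found on vessels, was counted at 4677, 6737 and 4469.7 in MYC WT, 3169.7, 2807 and 3061 in MYC MUT and 4247, 3677 and 4138 in SWP. It fell in MYC MUT, with -0.79 ± 0.13 (SE, adjusted p = 0.000905), with every MYC MUT library below all others, and was -0.42 ± 0.13 (SE, adjusted p = 0.0309) against SWP. UNC5C, a repulsion receptor, gave 2253, 3067 and 2122 in MYC WT, 1183, 1092 and 1124 in MYC MUT and 1957, 1985 and 2155 in SWP. It was again lowest in MYC MUT, with -1.11 ± 0.12 (SE, adjusted p = 4.64e-05) and -0.84 ± 0.12 (SE, adjusted p = 0.000284). MYC WT replicate 2 was the highest library for both genes.

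UNC5A, another receptor of the group, at 73.8, 207 and 159.8 in MYC WT, 187, 263 and 287 in MYC MUT and 93.9, 208 and 231 in SWP, had a difference of 0.84 ± 0.39 (SE, adjusted p = 0.114) in MYC MUT and passed without SWP replicate 1 (adjusted p = 0.0406). Between the edited lines its 0.55 was called with the replicate block alone (adjusted p = 0.0184). NTN3, a netrin with 9.23, 14.6 and 10.6 in MYC WT, 21.3, 27.2 and 19.5 in MYC MUT and 17.2, 10.4 and 8.07 in SWP, was called higher in MYC MUT against both, and lost the call against MYC WT without MYC WT replicate 1 or 3 or any one MYC MUT replicate (adjusted p = 0.0604 to 0.131), with no count filter (adjusted p = 0.0827) and with DESeq2 (adjusted p = 0.0767). Against SWP it was lost without MYC WT replicate 3, any one MYC MUT replicate or SWP replicate 2 or 3 (adjusted p = 0.0512 to 0.136), with no count filter (adjusted p = 0.0854) and with DESeq2 (adjusted p = 0.112). NTN4 passed in SWP only without SWP replicate 1, at 0.53, and NTN5 was called nowhere. DCC, the attractive netrin receptor, had 2, 0 and 0 reads in MYC WT, 0, 1 and 0 in MYC MUT and none in SWP, and SEMA5A and UNC5D were also under the count minimum. No netrin or netrin receptor was called in SWP against MYC WT by limma, edgeR or DESeq2, with 0 netrins and 2 netrin receptors under an unadjusted p of 0.05. Netrin receptors summed to 1040.3 ± 242 (SD, n = 3) per kilobase in MYC WT, 603 ± 25.9 in MYC MUT and 819 ± 44.7 in SWP.

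Guidance genes with large changes were set beside the other genes around them. In MYC MUT the median of tested neighbours within 5 Mb was -0.33 around EPHA10, 0.04 around EPHB6, 0.05 around EPHB1 and 0.07 around PLXNA4, beside their own 2.97, 2.40, 2.29 and 2.39. It was 0.01 around EPHA3. For EPHA8, UNC5B and NRP1, which fell, neighbours were lower as well, at -0.30, -0.27 and -0.35. Around EFNB3, which rose, neighbours were higher, at 0.24, as they were around EPHA7.

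Set side by side, 11 of the 28 genes called in MYC MUT rose against both other lines without a call in SWP (EFNA2, EFNB3, EPHA5, EPHA7, EPHB1, NTN3, PLXNA4, PLXNB3, PLXNC1, SEMA4F and SLIT3), and 8 fell likewise (EFNA1, EPHA3, EPHA4, NRP1, NRP2, SEMA3A, SEMA3E and UNC5C). PLXNB3 was tested only through its MYC MUT values and is no independent support, and NTN3 lost 15 calls over the alternatives. SEMA3C, SEMA6B and SLIT1 rose and PLXNA3, ROBO2 and UNC5B fell against MYC WT, while the direct comparison with SWP did not pass. Of the 64, 32 were called in none of the 3 comparisons. The share of all genes with each of these patterns is not given here, so they are not shown to be particular to guidance genes. Of all genes 21.4% were called in MYC MUT and 5.13% in SWP against MYC WT, and 20.6% between the edited lines.

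Other genes of the pathway were taken from a list of 89 (among them further ligands and adhesion proteins, proteases, effectors of plexins, and kinases and actin regulators), of which 83 were tested. In MYC MUT 14 rose and 10 fell (28.9% called, beside 21.4% of all genes), and in SWP 3 rose and 7 fell, beside 2.15% and 2.98%. The list was chosen with earlier results of these data known, so its shares are no independent support. With the replicate block 11 fell in SWP, beside 4.18% of all genes in the same fit. Between the edited lines 15 were higher and 8 lower, beside 12.3% and 8.31%. Among 17 effectors of plexins 7 rose and 1 fell in MYC MUT, beside 11.3% and 10.1% of all genes, with a median log2 fold change of 0.24. They had the largest share called in MYC MUT of the groups on the list (47.1%). In SWP 2 of them fell, beside 2.98%. Of 21 kinases, adaptors and actin regulators 3 rose and 2 fell in MYC MUT (23.8% called). DPYSL3, a collapsin response mediator downstream of SEMA3A, was counted at 223, 183 and 185 in MYC WT, 4900.2, 4606 and 4668 in MYC MUT and 206, 155 and 160.3 in SWP, a rise of 4.58 ± 0.13 (SE, adjusted p = 6.52e-09) in MYC MUT. CRMP1, of the same family, gave 59.5, 59.5 and 74.1 in MYC WT, 1407, 1347 and 1493 in MYC MUT and 22.9, 26.7 and 28.8 in SWP. It rose by 4.44 ± 0.14 (SE, adjusted p = 1.73e-08) in MYC MUT and fell by 1.26 ± 0.14 (adjusted p = 0.000264) in SWP, with no overlap between lines. PLXDC2, a plexin domain protein, gave 57.4, 74.1 and 59.7 in MYC WT, 478, 529.8 and 574 in MYC MUT and 6.87, 11.1 and 6.92 in SWP, with 3.03 ± 0.20 (SE, adjusted p = 2.07e-06) in MYC MUT and -2.82 ± 0.20 (SE, adjusted p = 8.98e-06) in SWP.

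CXCL12, a chemokine that also guides axons, was counted at 92.3, 155 and 151 in MYC WT, 0.00, 2.92 and 1.95 in MYC MUT and 0.00, 0.00 and 0.00 in SWP. MYC WT held 385 reads in all against 5 in MYC MUT, a ratio of 83.1 (95% counting interval 35.3 to 257.5), and was at least 43.6-fold higher than SWP at 3 reads per library. The counting interval again leaves out the spread between libraries. Its receptor CXCR4 gave 216, 173 and 184 in MYC WT, 714, 855 and 821 in MYC MUT and 375, 553 and 494 in SWP. The lines did not overlap, and it rose in both, by 2.06 ± 0.15 (SE, adjusted p = 3.52e-06) and 1.29 ± 0.15 (SE, adjusted p = 0.00029). NELL2, a ligand of ROBO3, gave 1403, 1794 and 1678 in MYC WT, 3488, 4032 and 4134 in MYC MUT and 2574, 3468 and 3671 in SWP. MYC WT was lowest and the edited lines overlapped, with rises of 0.98 ± 0.14 (SE, adjusted p = 0.000997) in SWP and 1.26 ± 0.14 (SE, adjusted p = 4.43e-05) in MYC MUT.

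CFL1, the actin-severing cofilin, was counted at 48169, 44986 and 50591 in MYC WT, 53725, 52374 and 56678 in MYC MUT and 67573, 64562 and 72497 in SWP. SWP was highest, with a rise of 0.51 ± 0.07 (SE, adjusted p = 0.00107) that was 0.46 without MYC WT replicate 2 and 0.46 without SWP replicate 3, under the fold threshold. VASP, an actin regulator, gave 3065, 2949.8 and 3300.0 in MYC WT, 1677, 1911 and 1991 in MYC MUT and 2987, 3142 and 3330.5 in SWP. RGMA, a repulsive ligand, gave 3772, 3429 and 3270.2 in MYC WT, 2090.1, 2119 and 2268 in MYC MUT and 3870.1, 3729 and 4056 in SWP. Both were lowest in every MYC MUT library and fell there, with -0.74 ± 0.08 (SE, adjusted p = 5.73e-05) for VASP and -0.69 ± 0.07 (SE, adjusted p = 4.15e-05) for RGMA.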

How the data were processed

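Poly(A)-selected, strand-specific RNA of 9 HEK293T libraries was analysed. Per the study's methods, the authors aligned reads to hg38 with BWA, without joining exons across introns, and linked GENCODE release 42. The counting tool and its use of strand are not given in the sources used here. The deposited values are a normalized signal, read counts divided by DESeq2 size factors, and the whole reads behind them were recovered for 100% of values (tolerance 0.0001). Values were tested as log2(value + 1) with limma 3.58.1 in 1 fit of the 9 libraries over 20884 genes with a mean of at least 10, adjusted by Benjamini-Hochberg over all of them. A pseudocount understates the change of low genes. A single gene tested by exact permutation of 3 against 3 libraries could not go below p = 0.1. edgeR 4.0.16 and DESeq2 1.42.0 on recovered reads, other scalings, filters and pseudocounts, and each library left out were alternatives. Scripts were tested on simulated data. Levels per kilobase used GENCODE 44 exons, and neighbours within 5 Mb replaced the chromosome arm planned first. Deviations of same-numbered libraries correlated at 0.102 to 0.555 between MYC WT and SWP, beside -0.477 to 0.263 for different numbers. Between the edited lines they correlated at 0.232 to 0.333, beside -0.246 to 0.024 for different numbers. Only between the edited lines were the ranges apart, so whether numbers pair the libraries was not settled. The main fit used no block, and blocked fits are an alternative. By rule, full values were given for called members with a mean of at least 50 in a line (at most the 12 largest rises and falls per comparison), the most abundant member per kilobase of each family, members at 3 reads or fewer in 1 line but not another, and the 3 largest rises and falls against MYC WT of other pathway genes with a mean of at least 50. Other members with values were named after their values were seen. Members and lists were chosen with earlier results of these data known. The source of the motif placed in SWP and 1 group of the other pathway genes are not reported here, though the group is part of the counts over that list.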

Additional observations from a re-analysis of the deposited data

Results flagged for a closer look

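EPHB6 was called in opposite directions in the edited lines against the same MYC WT libraries, higher in MYC MUT and lower in SWP. The direct comparison of the edited lines gave a log2 fold change of 4.14 with limma, with every MYC MUT library above every SWP library. Groups of 3 libraries were too small to look for single outlying values.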

How the results depend on the processing

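Over 20 alternatives and 3 comparisons, the 64 tested members kept their call or lack of one in 3764 of 3825 values, with 30 calls gained, 31 lost (15 of them of NTN3) and 0 reversed. With 1 library left out, MYC ranged from -1.12 to -0.87 in MYC MUT and, without a call, from -0.29 to 0.12 in SWP. With a log2 fold change beyond 1, guidance genes numbered 8 higher and 3 lower in MYC MUT against MYC WT and 9 higher and 2 lower against SWP. With no fold threshold, 3 were higher and 6 lower in SWP against MYC WT, and 15 were lower in MYC MUT than in SWP. The share of all genes at these thresholds is not given here, so the counts are not a result about the members. Leaving out 1 library gave 1 to 5 higher and 3 to 4 lower in SWP against MYC WT, beside 1.65% to 2.69% and 2.31% to 3.68% of all genes. There were 4 higher without MYC WT replicate 2 and 5 without SWP replicate 1. In MYC MUT against MYC WT it gave 12 to 17 higher and 11 to 13 lower, beside 9.66% to 12.1% and 8.48% to 11.8%. Against SWP, MYC MUT had 15 to 17 higher and 7 to 11 lower, beside 10.8% to 13.1% and 6.92% to 9.84%.

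Of the other pathway genes, with no fold threshold 22 were higher and 18 lower in MYC MUT against MYC WT, 9 were higher in SWP, and 24 were higher and 21 lower in MYC MUT than in SWP. Beyond 1, 1 was lower in MYC MUT than in MYC WT, 1 was higher in SWP and 1 was lower in MYC MUT than in SWP. Leaving out 1 library gave 6 to 11 lower in MYC MUT than in MYC WT, with 6 without MYC WT replicate 2, and 2 to 5 higher in SWP, with 5 without SWP replicate 1. Over all genes these fits called 8.48% to 11.8% lower in MYC MUT and 1.65% to 2.69% higher in SWP. A change of threshold changes the count by construction, the share of all genes at the changed thresholds is not given here, and for the left-out libraries the cause was not tested.

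With the replicate number as a block, 11 other pathway genes were lower in SWP than in MYC WT. Guidance genes numbered 17 higher and 13 lower in MYC MUT against MYC WT, 1 and 4 in SWP, and 19 and 10 between the edited lines. Over all genes the block called 23.8%, 7.01% and 22.9% in these comparisons, beside 21.4%, 5.13% and 20.6% without it. Same-numbered MYC WT and MYC MUT libraries correlated at 0.049 to 0.328, beside -0.238 to 0.154 for different numbers, so a pairing was not settled there. In MYC MUT against MYC WT the block added SEMA4A at -0.65 (limma, adjusted p = 0.00316) and UNC5A at 0.84 (adjusted p = 0.00152). Apart from these and the members given above with a blocked value, the block changed no call of a guidance gene. Depth limits EPHA1, DCC, SEMA5A and UNC5D, which had 6 reads or fewer in each library.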
